A study of Bos taurus and Bos grunniens and Bubalus bubalis with 15 samples.

Results

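Back muscle of 3 Guangxi buffalo was compared with back muscle of 6 Qinchuan cattle, 3 castrated males (steers) and 3 females (cows), on expression arrays built from cattle sequence. These 9 arrays were taken from the 15 arrays of the series by their breed and sex labels. The 3 bulls (intact males) of the same cattle breed were left out, and 3 Qinghai yak were used only for a second, direct comparison with the buffalo. All animals were 36 months old. Total RNA from the frozen longissimus dorsi, which runs along the spine, was labelled with biotin and hybridised to 1 array per animal, and the labels call the animals of a group biological replicates. The design text describes the cattle as of similar background, born close together and reared alike. It says nothing of how the buffalo and yak were kept, and the labels do not give their sex. Species, origin, rearing and sex of the animals therefore cannot be told apart in the buffalo comparison. The study set out to compare gene expression in muscle between the sexes of Qinchuan cattle and between cattle, yak and buffalo.

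The longissimus is a mixed muscle. Its fast fibres burn glycogen through glycolysis, its slow fibres rely on mitochondria and myoglobin, and each fibre type has its own set of myosins, troponins, tropomyosins and calcium pumps. Between the fibres lie fibroblasts, which lay down collagen, together with vessels, nerves, fat cells and immune cells. Water buffalo belong to another genus than cattle, whereas yak are close relatives of cattle, so a buffalo transcript can differ from the cattle sequence on the array within the stretch that the probes bind. A low reading from one probe set (a group of short probes against one stretch of transcript) is therefore not the same as a low transcript level. For this reason, genes for which several probe sets differed in the same direction come first here, and the reading of each probe set is given by itself.

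Of 24016 probe sets that are not array controls, 14409 were bright enough to be tested, and 9154 of these carried a single gene symbol, for 7113 genes. Across the tested probe sets, any buffalo array correlated with any steer or cow array at 0.85 to 0.88, against 0.96 to 0.98 between cattle arrays and 0.96 to 0.98 between buffalo arrays. The first principal component held 66.9% of the variance of the 9 arrays and separated the buffalo from all cattle. Buffalo 1 stood apart from buffalo 2 and 3 on the second component (9.35%), with a score of -24.8 against 11.3 and 10.4. Mean intensity was 304 to 313 on the buffalo arrays and 342 to 353 on the steer and cow arrays, while the medians were alike. The array's control probe sets for actin read 1.42, 1.69 and 1.73 times brighter at the 3′ end than at the 5′ end in buffalo and 1.22 to 1.33 times in the cattle, and those for GAPDH 1.22, 1.42 and 1.5 times against 1.17 to 1.2. Whether this 3′ to 5′ difference reflects RNA quality or probe match, and its part in the results, was not tested. The defining markers of skeletal muscle fibres were bright on every array, with a summed intensity of 87442 to 90092 in buffalo and 99352 to 106120 in the steers and cows. With 3 arrays per group, the number of arrays limits the precision. In bulk muscle, fewer cells of a type and less RNA per cell cannot be told apart.

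About every other tested probe set differed between buffalo and cattle. Differences are given as buffalo minus the mean of the steer mean and the cow mean, on the scale log2(intensity + 16), with the standard error of the fit. This scale understates the change of dim probe sets. At a limma adjusted p below 0.05, 7126 probe sets (49.5%) were called, of which 3213 (22.3%) were higher and 3913 (27.2%) lower in buffalo. Among the tested probe sets, large differences leaned to one side: 414 (2.87%) were called and at least 2-fold higher, and 1350 (9.37%) were called and at least 2-fold lower. At 4-fold, 58 (0.403%) were higher and 212 (1.47%) lower. The brightness filter uses the mean of 6 cattle and 3 buffalo arrays. Probe sets bright only in cattle thus pass it more easily than those bright only in buffalo. Its part in this lean was not tested. Without the filter, calls of any size were 6416 higher and 4609 lower. With the filter applied in both groups they were 2810 higher and 3245 lower. For 6152 probe sets (42.7% of those tested), counted whether called or not, the 3 buffalo lay wholly above or wholly below all 6 cattle. The female minus castrated comparison in the same fit called 4 probe sets (0.0278%), 3 higher (0.0208%) and 1 lower (0.00694%) in the cows. The split between directions depended on scaling, since 45.1% of the calls were higher in buffalo on the values as deposited, 54.7% after quantile normalisation and 41.0% after the arrays were set to equal medians.

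The direction of the difference followed the brightness of the probe set. When all 24016 probe sets were cut into 10 equal bins by their mean over the 9 arrays, the median buffalo difference was 0.13, 0.19 and 0.18 in the 3 dimmest bins and -0.05, -0.14 and -0.23 in the 3 brightest. Buffalo read above the cattle for 79.8% of probe sets in the dimmest bin and for 32.2% in the brightest. The yak minus cattle medians stayed between -0.05 and 0.03 over the same bins. The bins rank the same 9 arrays from which the buffalo difference is taken, 6 of them cattle, whereas the yak arrays are not in the ranking. The part of this ranking in the buffalo trend was not tested, and the yak medians cannot show it. For each median against the cattle that is given for the gene groups described later, a further value is given after the buffalo median of each probe set's own bin was taken off.

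**Figure D1:**
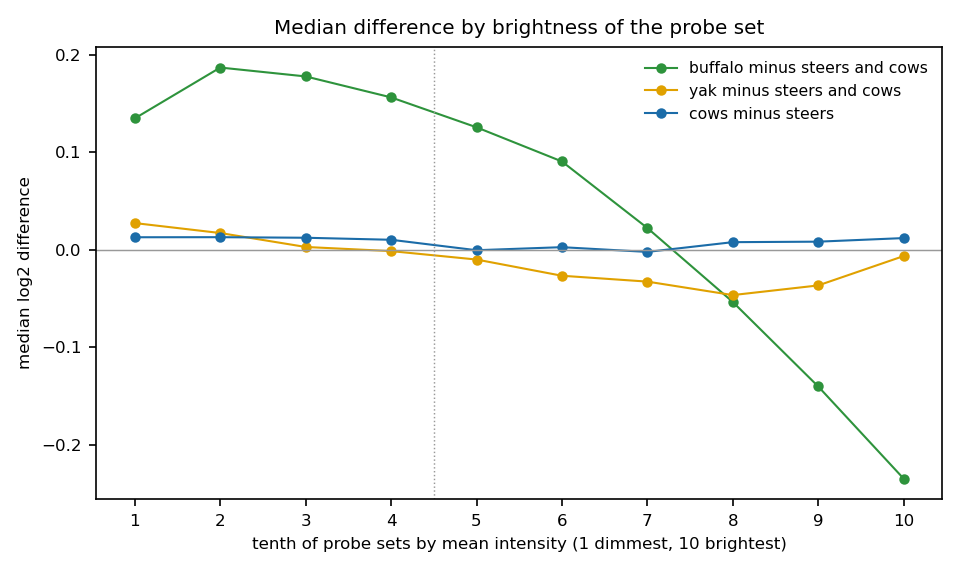
Median log2 difference (vertical axis) in 10 bins of probe sets by mean intensity (horizontal axis, 1 dimmest, 10 brightest) for buffalo and yak, each minus the steers and cows, and for cows minus steers; the bins left of the dotted line were not tested. The buffalo medians run from 0.13 in the dimmest to -0.23 in the brightest bin, and the yak medians stay between -0.05 and 0.03.

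Probe sets of the same gene could differ widely from each other in buffalo. Several tested probe sets were on hand for 1622 genes, and all of them had the same sign for 57.2% of these genes in buffalo minus cattle, 62.8% in yak minus cattle and 60.9% in female minus castrated. The median gap between the highest and lowest probe set of a gene was 0.45 log2 units in the buffalo comparison, 0.24 in the yak comparison and 0.14 in the comparison of cows with steers. The gap exceeded 1 log2 unit for 308 genes (19.0%) in buffalo, 73 (4.5%) in yak and 12 (0.740%) between cows and steers. Where at least 2 probe sets of a gene were called, all calls had the same direction for 382 of 518 genes (73.7%) in buffalo and for 199 of 217 (91.7%) in yak. Over the 1300 genes with exactly 2 tested probe sets, the difference at one correlated with the difference at the other at r = 0.34 in buffalo and 0.60 in yak, a description across genes in which both values come from the same arrays. The remaining 136 genes (8.38% of 1622) in the buffalo comparison had probe sets called in both directions. The difference between these shares was not tested.

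**Figure D2:**
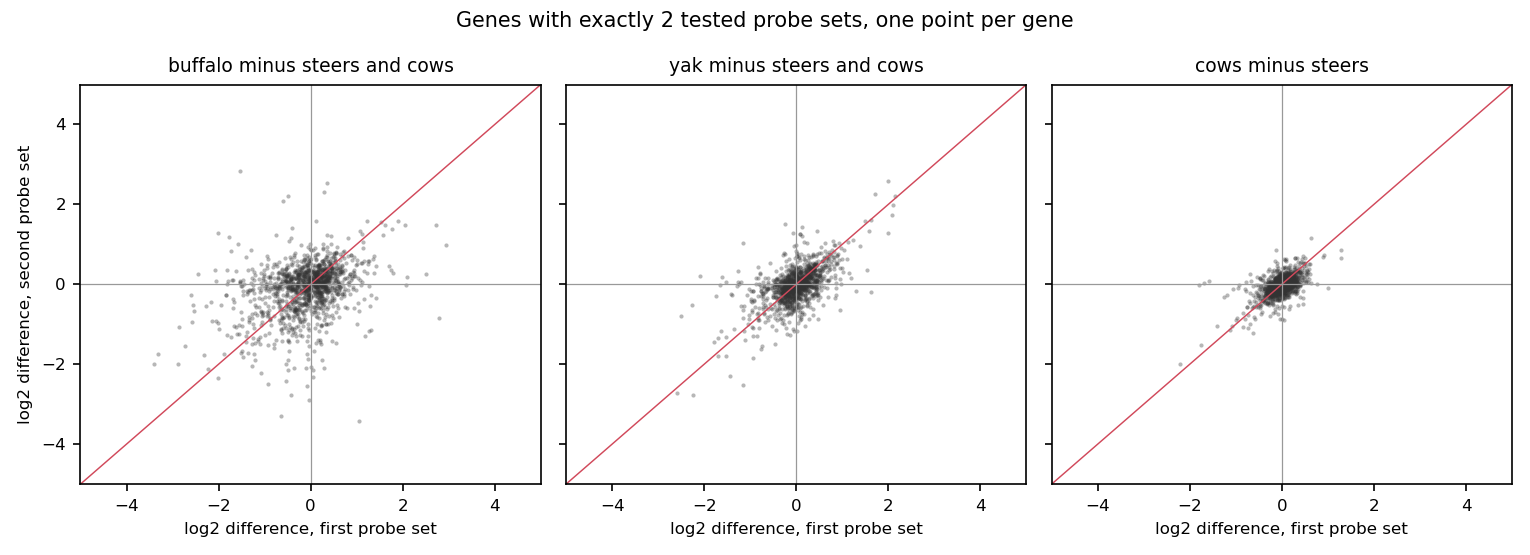
Log2 difference at one probe set (horizontal axis) against the other probe set (vertical axis) of the same gene, one point per gene for the 1300 genes with exactly 2 tested probe sets. The panels show buffalo and yak, each minus the steers and cows, and cows minus steers. The buffalo points scatter more widely around the diagonal (r = 0.34) than the yak points (r = 0.60) and the cows minus steers points (r = 0.57).

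By the rule of several agreeing probe sets (at least 2 called in one direction and none of the gene's tested probe sets with the opposite sign), 146 genes (9.0% of 1622) were higher and 202 (12.5%) lower in buffalo. For 311 of these 348 genes the called probe sets represent at least 2 different transcript sequences of the array's design, and for 47 genes at least 3 probe sets were called. The median difference was 0.50 for the higher and -0.88 for the lower genes, and 17 of the higher and 88 of the lower genes were at least 2-fold apart. The brightness filter favours probe sets bright only in cattle over those bright only in buffalo, and its part in these counts was not tested. The count of higher genes fell to 95 without buffalo 2 and to 96 without buffalo 3. It was 277 without the filter on dim probe sets and 64 with a stricter one. Of the 5491 genes with a single tested probe set, 1088 (19.8%) were higher and 1616 (29.4%) lower.

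The widest agreeing increase was in LCAT, the plasma enzyme that esterifies cholesterol on high-density lipoprotein. One probe set read 1848, 1651 and 1714 in the 3 buffalo and 78.5 to 129 (median 89.3) in the 6 cattle, a difference of 3.97 ± 0.13 (SE) or 15.7-fold (limma adjusted p = 1.41e-07). Another read 766, 735 and 578 against 25.7 to 44.7 (median 31.1), and the last of the 3 read 99.8, 94.2 and 86.6 against 62.2 to 77.0 (median 70.2). The groups did not overlap at any of the 3, but the last differed by only 0.36. The yak lay between, at 349, 373 and 447 on the first probe set, and buffalo exceeded yak there by 2.12 ± 0.15 (adjusted p = 1.03e-06).

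MLLT11, a small protein first found as a fusion partner in leukaemia, read 858, 965 and 1088 in buffalo and 87.4 to 187 (median 138) in cattle at one probe set, a difference of 2.72 ± 0.20 (limma adjusted p = 7.43e-06). Its second probe set differed by 1.48, and the buffalo were likewise above the yak by 2.97 and 1.68. METTL21E, a member of a family of protein lysine methyltransferases with high expression in muscle, read 351, 365 and 465 in buffalo and 42.8 to 177 (median 93.9) in cattle at one probe set (1.90 ± 0.36, limma adjusted p = 0.00194) and 783, 866 and 1192 against 119.8 to 589.8 (median 338) at the other (1.59 ± 0.47). The cattle spanned a wide range and the buffalo lay above all of them, whereas the yak read only 20.4, 28.4 and 23.6 at the first probe set. The buffalo minus yak differences, 3.35 ± 0.37 and 3.88 ± 0.52, were the widest among the higher genes described in this paragraph and the one before it. SLC25A33, a carrier of pyrimidine nucleotides into mitochondria, read 1193, 1195 and 1044 in buffalo and 157 to 442 (median 259) in cattle (difference 2.04 ± 0.15). Here the yak were as high as the buffalo, at 1862, 1012 and 900, and the buffalo minus yak difference of -0.06 ± 0.25 did not pass the test (limma adjusted p = 0.85).

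A further 8 of the 12 widest agreeing higher genes are given next. NBN, a subunit of the complex that senses double-strand breaks, read 831, 1102 and 1123 in buffalo and 292 to 468 (median 385) in cattle at the probe set with the smaller difference (1.39), and its other probe set differed by 1.77. REV3L, the catalytic subunit of a polymerase that copies past DNA lesions, differed by 1.23 and 1.59, and HMGB2, a chromatin protein that bends DNA, by 1.11 and 1.25. PIK3CA, the catalytic subunit of phosphoinositide 3-kinase downstream of the insulin receptor, differed by 1.63 ± 0.18 (limma adjusted p = 8.84e-05) and 1.49 ± 0.14. XDH, which makes uric acid from xanthine, differed by 1.07 and 1.34, with readings of 1099, 605 and 689.5 in buffalo and 190.3 to 440 (median 289) in cattle at the second. CRYM, a thyroid hormone binding protein, differed by 1.71 and 0.46, MYSM1, a histone deubiquitinase, by 1.57 and 1.23, and WDR59, a subunit of a regulator of the growth kinase mTORC1, by 2.94 and 0.99. At each called probe set of these 8 genes the buffalo lay above all 6 cattle.

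Among the agreeing lower genes, STAC3 had 4 called probe sets. STAC3 is the muscle protein that couples the voltage sensor of the fibre membrane to calcium release, and its differences were -1.63 ± 0.15, -2.16 ± 0.11, -2.44 ± 0.12 and -2.15 ± 0.14, with limma adjusted p from 8.87e-07 to 3.6e-05. At the probe set with the widest difference, the buffalo read 311, 268 and 358, the cattle 1406 to 2179 (median 1707) and the yak 2166, 1889 and 1607. The buffalo thus lay below every steer, cow and yak at this probe set, with a buffalo minus yak difference of -2.53 ± 0.14 (adjusted p = 1.87e-07).

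AGPAT5, an enzyme of phospholipid synthesis, had 5 called probe sets, at -1.77, -1.57, -1.80, -2.79 and -1.16. Against the yak, the same 5 differed by 0.26, -0.15, 0.05, -1.35 and -0.04, so that only the probe set with the widest difference from cattle stood well below the yak. EGLN1, the oxygen-sensing prolyl hydroxylase that marks hypoxia-inducible factors for breakdown, was lower at 3 probe sets by very different amounts, -0.72, -3.13 and -1.37. PGM1, which interconverts the 2 glucose phosphates at the exit from glycogen, read 1233, 1290.3 and 870.3 in buffalo and 3052 to 5117 (median 4089.6) in cattle (-1.88 ± 0.16, limma adjusted p = 1.76e-05), and its second probe set differed by -1.75 ± 0.19. No buffalo reached the lowest steer or cow at either PGM1 probe set.

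SEL1L3, a membrane protein of little-known function, read 34.8, 47.8 and 50.5 in buffalo and 473 to 769 (median 651) in cattle at one probe set, a difference of -3.41 ± 0.16 (limma adjusted p = 8.14e-07), and -1.99 at its other probe set. DISP1, which releases hedgehog ligands from the cell, read 75.4, 54.6 and 67.9 in buffalo, 367 to 788 (median 534) in cattle and 2995, 1591 and 2007 in yak. Its order, with buffalo lowest and yak highest and no overlap between the 3 species, gave a buffalo minus yak difference of -4.71 ± 0.22 (limma adjusted p = 5.6e-08). The protease inhibitor CST6 differed by -2.22 and -2.13, the surface protein CD99 by -2.86 and -1.06, and COMMD8, a subunit of an endosomal sorting complex, by -0.92 and -2.51. PRNP, the prion protein gene, differed by -2.89 and -1.99, DUT, which clears dUTP from the nucleotide pool, by -2.32 and -1.78, and RAB7A, a small GTPase of late endosomes, by -2.58 and -0.94. The last 3 genes rest on probe sets of a single transcript sequence each. The same holds for TPM3, COL1A2, COL3A1, COL4A1, EEF1A1, CAST, IGF2R and SLC6A8, which are described later.

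**Figure D3:**
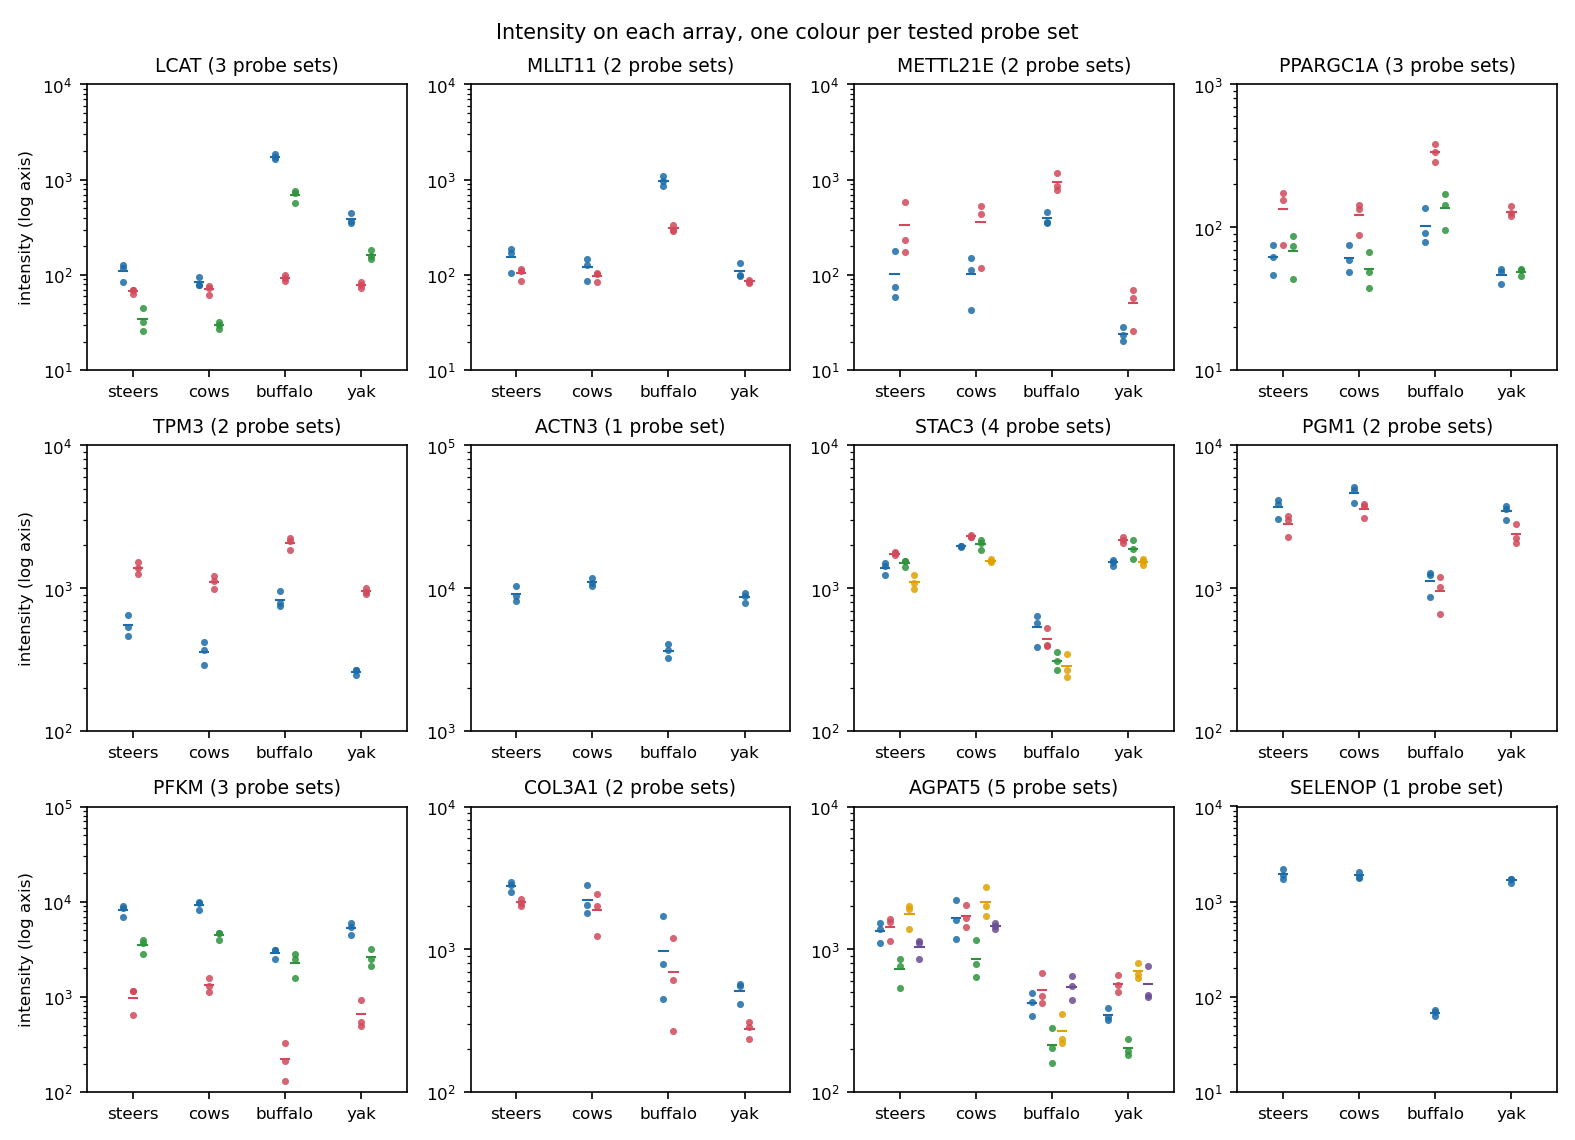
Intensity on each array (vertical axes, log scale, own range per panel) for 12 genes in steers, cows, buffalo and yak; points are animals, short bars group means and colours the tested probe sets of a gene. LCAT and METTL21E read higher and STAC3 lower in all 3 buffalo than in any steer or cow at every probe set shown, and the yak lie below all cattle for METTL21E.

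More slow fibre genes were higher than lower in buffalo, and more fast fibre genes were lower than higher. In the lists that follow, a gene is counted as higher or lower if at least 1 of its tested probe sets was called and none was called the other way. Over all 7113 genes, 1568 (22.0%) were higher and 2198 (30.9%) lower by this count, 136 (1.91%) had calls both ways, and the median was -0.05. Of 11 tested slow fibre genes, 6 (54.5%) were higher and 2 (18.2%) lower in buffalo, with a median of 0.20, or 0.43 after the brightness bin medians were taken off. Of 10 tested fast fibre genes, 1 (10%) was higher and 7 (70%) lower, with a median of -0.45, or -0.23 after the bin medians. The direction of both medians held in every setting tried, quantile normalisation included. Against the yak, where 22.0% of all genes were higher and 29.1% lower by the same count, 8 slow fibre genes were higher and 1 lower (median 0.51), and 1 fast fibre gene was higher and 6 lower (median -0.29).

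TPM3, the slow tropomyosin that lies along the thin filament, read 751, 795 and 959 in buffalo and 292 to 651 (median 444) in cattle at one probe set (0.89 ± 0.16, limma adjusted p = 0.00139) and 1870.4, 2147 and 2258 against 987 to 1533 (median 1242) at the other (0.74 ± 0.12). All 3 buffalo exceeded all 6 cattle at both. Its differences from yak were wider, at 1.61 ± 0.16 and 1.11 ± 0.12. ATP2A2, the slow fibre calcium pump, was higher at 2 of its 4 tested probe sets, while TNNC1, the calcium-binding troponin of slow fibres, differed by only 0.23 and 0.16. MB, the oxygen store myoglobin, went the other way, with 9872, 9245 and 9482 in buffalo, 13542 to 15335 (median 14844) in cattle and a difference of -0.61 ± 0.06 (limma adjusted p = 3.14e-05). The MB readings did not overlap between the groups.

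On the fast side, ACTN3, the Z-disc actinin of fast fibres, read 4078, 3714 and 3248 in buffalo and 8174 to 11742 (median 10472) in cattle, a difference of -1.45 ± 0.10 (limma adjusted p = 4.46e-06). TPM1, the fast tropomyosin, differed by -1.74 ± 0.21, and TNNT3, the fast troponin that anchors the complex to tropomyosin, by -0.90 ± 0.09. ATP2A1, the fast fibre calcium pump, was lower at both probe sets, but by -0.49 ± 0.13 and -1.90 ± 0.22, so its size of change depends on the probe set read. ACTN3, TPM1 and TNNT3 each rest on 1 tested probe set. The myosins showed less. The fast myosin MYH1 was called lower at 1 of its 4 tested probe sets, with differences from -1.89 to 0.20. Against the yak its probe sets were called both ways. MYL1, also on the fast list, differed by -0.05 and did not pass the test (limma adjusted p = 0.298). The slow myosin MYH7, named after its values were seen, was higher at 1 of 2 probe sets, with a mean of 0.09.

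Of 16 tested genes of the sarcomere and its cytoskeleton, 2 were higher and 9 lower (median -0.26, or -0.04 after the bin medians), and after quantile normalisation 4 were higher and 6 lower. CAPZB, which caps the thin filament at the Z-disc, read 264, 236 and 227 in buffalo and 1524 to 2179.7 (median 1685) in cattle (-2.78 ± 0.12). PDLIM7, a Z-disc scaffold, differed by -1.49 and -1.66, and SGCA, a sarcoglycan of the dystrophin complex, by -1.31. The buffalo lay below all cattle for CAPZB and SGCA. TNNI3, the cardiac troponin subunit and a marker of heart muscle, read 377, 467 and 323 in buffalo and 38.3 to 62.4 (median 48.0) in cattle (2.65 ± 0.13, limma adjusted p = 7.55e-07). It was the only one of the 3 tested cardiac markers that was called, and the summed intensity of all 4 on the array was 671 to 803 in buffalo and 357 to 396 in the steers and cows.

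Most calcium handling genes were lower in buffalo. None of 11 tested genes was higher and 8 (72.7%) were lower, with a median of -0.91, or -0.68 after the bin medians. Beside STAC3, STIM1, the sensor of the calcium store, read 167, 164 and 165 in buffalo and 518 to 785 (median 635) in cattle, a difference of -1.83 ± 0.11 (limma adjusted p = 2.42e-06). ORAI1, the membrane channel that STIM1 opens, differed by -1.13 ± 0.11. CACNB1, a subunit of the voltage-gated channel of the fibre membrane, was lower at 2 of 3 probe sets, by -0.78 and -0.77, with -0.08 at the other. Against the yak, 7 genes of this list were lower and 1 higher, with a median of -0.73.

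**Figure D4:**
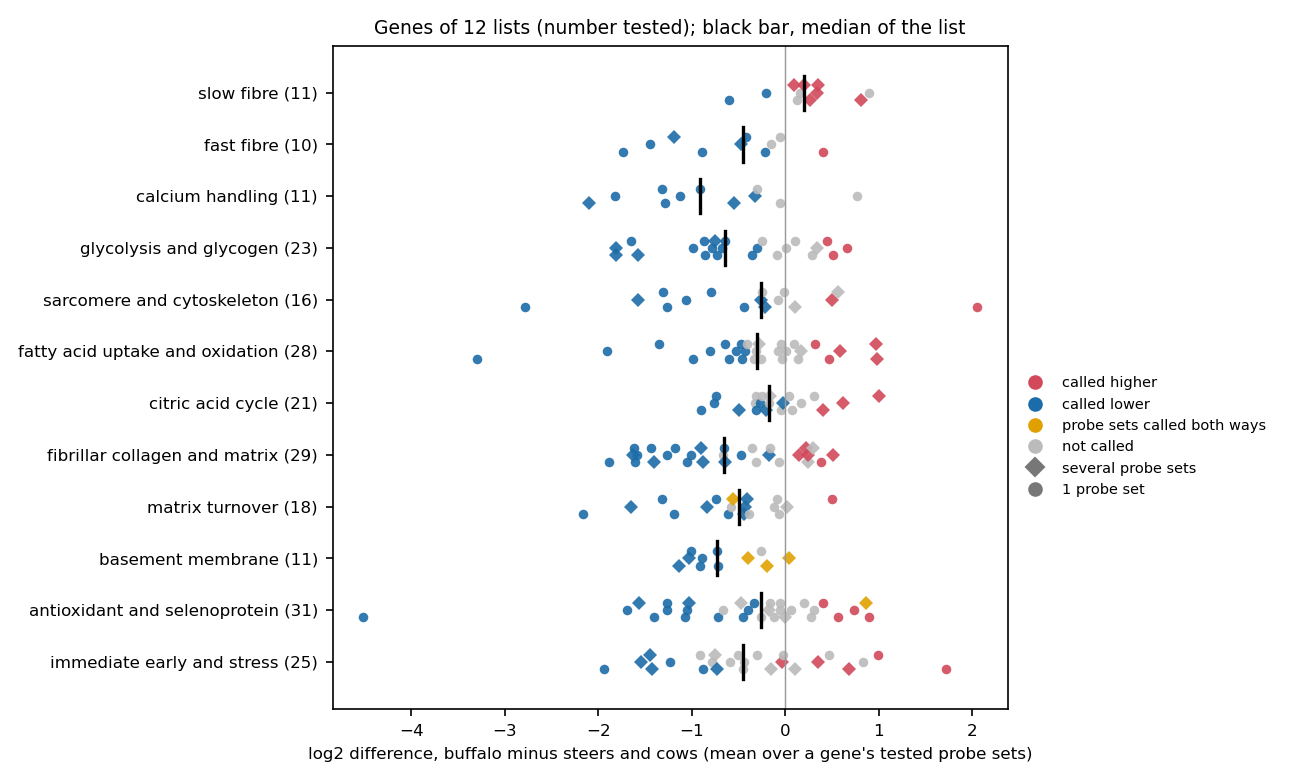
Log2 difference of each tested gene between buffalo and the steers and cows (horizontal axis, mean over its tested probe sets) in 12 gene lists, coloured by call, with diamonds for genes with several tested probe sets and a black bar at the median of each list; the grey line is 0. The slow fibre median lies at 0.20, and the medians of calcium handling (-0.91), glycolysis (-0.65) and fibrillar matrix (-0.66) lie below 0.

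Glycolysis and glycogen genes were mostly lower in buffalo. Of 23 tested, 14 (60.9%) were lower and 3 (13%) higher, with a median of -0.65, or -0.41 after the bin medians. PFKM, the muscle phosphofructokinase that commits sugar to glycolysis, read 3144, 3117 and 2505 in buffalo and 6875 to 9834 (median 8765) in cattle at one probe set (-1.57 ± 0.11, limma adjusted p = 7.36e-06), and its other probe sets differed by -2.33 and -0.82. LDHA, which turns pyruvate into lactate, read 7831, 7773 and 5869.8 against 13000 to 16730 (median 15561) at one probe set (-1.10 ± 0.10), differed by -0.92 at another, and missed the threshold at the last (-0.22, limma adjusted p = 0.263). All 3 buffalo lay below all cattle at this PFKM probe set and at the brightest LDHA probe set. PPP1R3C, which targets a phosphatase to glycogen, was lower at 3 probe sets, by -1.82, -2.32 and -1.30. The 3 higher genes, named after their values were seen, were the hexokinase HK1 (0.66), the glucose transporter SLC2A4 (0.45) and UGP2 (0.51), which makes the sugar donor for glycogen. None of the list was called higher when the buffalo were compared with the steers alone, a comparison that called 42.3% of all probe sets and 18.2% as higher, and 1 was without buffalo 2 or without buffalo 3, whereas the lower count stayed at 14 or 15 in those settings. Against the yak, 5 genes were higher and 7 lower, and the median was -0.07.

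Mitochondrial genes gave a mixed picture. Of 21 tested genes of the citric acid cycle and its entry, 3 were higher and 8 lower (median -0.18, or 0.06 after the bin medians). After quantile normalisation 7 were higher and 6 lower with a median of 0.08, so no direction is given for this list. The lower count was 5 without steer 3, cow 2 or buffalo 2. PDK4, the kinase that shuts pyruvate out of the cycle when fat is burned, was higher at 2 of 3 probe sets, by 0.76 and 1.73 ± 0.29, with 0.50 at the other (limma adjusted p = 0.113). Of 66 genes of the respiratory chain and ATP synthase, 5 were higher, 21 lower and 2 called both ways, with a median of -0.11, or 0.13 after the bin medians. That split turned over with quantile normalisation, which gave 26 higher and 12 lower, so this list has no direction given. The higher count fell to 2 without steer 1, cow 2 or buffalo 2 and to 3 without steer 2, cow 1, buffalo 1 or buffalo 3. By the naming rule, the members given are those with the smallest p, and none of the 5 higher genes is among them. NDUFS6 and UQCR10, subunits of complexes I and III, differed by -1.28 ± 0.10 and -0.84 ± 0.08. NDUFS1, the largest subunit of complex I, differed by -2.27 ± 0.22 at the called one of its 2 tested probe sets and by -0.53 at the other. NDUFB2 was called both ways, at -1.89 and 0.24. The highest mean difference of a gene on this list was 0.61.

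PPARGC1A, the coactivator that drives mitochondrial gene expression in muscle, was higher at all 3 tested probe sets. The widest difference came from a probe set with 289, 384 and 338 in buffalo and 75.1 to 175 (median 139.8) in cattle (1.32 ± 0.24, limma adjusted p = 0.00145), and the others differed by 0.60 ± 0.18 and 1.02 ± 0.22. The buffalo also exceeded the yak by 0.89, 1.28 and 1.20. Among the 28 tested genes of fatty acid uptake and oxidation, to which PPARGC1A was assigned, 5 were higher and 11 lower (median -0.30, or -0.11 after the bin medians). DECR1, needed to oxidise unsaturated fatty acids, was higher by 0.52 and 0.66, while CPT2, which hands fatty acids over inside the mitochondrion, differed by -0.80 and the thioesterase ACOT2 by -1.35. CPT2 and ACOT2 readings of the buffalo lay below those of all cattle.

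Of 23 tested genes of fatty acid synthesis and storage, 3 were higher and 6 lower (median -0.03, or 0.00 after the bin medians). After quantile normalisation 6 were higher and 6 lower with a median of 0.08, and 5 were higher without buffalo 1. ACACB, which makes the malonyl-CoA that blocks fatty acid entry into mitochondria, differed by -3.41 ± 0.15 at its only tested probe set, with a mean of 43.9 ± 5.24 (SD, n = 3) in buffalo and 641 ± 173 (SD, n = 6) in cattle. ME1, a source of NADPH for lipid synthesis, differed by -1.68 and -0.37. The fat hormones went opposite ways. LEP, the gene of leptin, read 224, 251 and 164 in buffalo and 82.1 to 90.9 (median 84.6) in cattle (1.16 ± 0.12), and ADIPOQ, the gene of adiponectin, read 27.8, 33.9 and 51.7 against 97.0 to 395 (median 185) (-1.97 ± 0.32). The groups did not overlap for either hormone. Of 6 tested adipocyte markers, LEP and ADIPOQ included, 3 were higher and 3 lower (median -0.37, or -0.29 after the bin medians). The summed intensity of these 6 markers overlapped between buffalo (2519 to 5175) and cattle (2441 to 5046). The part of fat cell number in these values was not tested.

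Most genes of the extracellular matrix were lower in buffalo than in the steers and cows. Of 29 tested genes of fibrillar collagen and matrix, 5 (17.2%) were higher and 17 (58.6%) lower, with a median of -0.66, or -0.57 after the bin medians. Without cow 3 the higher count was 3. COL3A1, a fibrillar collagen of soft tissue, read 448, 788 and 1704 in buffalo and 1807 to 2949.9 (median 2674) in cattle (-1.52 ± 0.34, limma adjusted p = 0.00476), and its second probe set differed by -1.73 ± 0.38. The 3 buffalo were spread widely and all lay below the lowest cattle array. COL1A2, a chain of the main collagen of tendon and muscle sheath, differed by -1.55 and -1.26, and FBLN1, a glycoprotein of elastic fibres, by -0.66 and -0.64. COL1A1, the partner chain of COL1A2, differed by -0.06, which did not pass the test (limma adjusted p = 0.734).

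The sheath around each fibre showed the same direction. Of 11 basement membrane genes, none was higher, 7 (63.6%) were lower and 3 had calls both ways, with a median of -0.74, or -0.50 after the bin medians. COL4A1, a chain of its collagen network, differed by -0.80 and -1.49, the laminin chain LAMA4 by -0.63 and -1.42, and the integrin ITGB1 by -0.72. Of 18 genes of matrix turnover, 1 was higher and 10 were lower (median -0.50, or -0.43 after the bin medians), although 6 were lower after quantile normalisation. PCOLCE, which speeds the trimming of procollagen, differed by -1.27 and -2.04.

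Fibroblast markers were lower together with these lists. Of 7 tested, none was higher and 6 were lower, with a median of -1.01, or -0.77 after the bin medians. The summed intensity of all 8 on the array was 3739 to 5108 in buffalo, 9799 to 10631 in steers, 7640 to 8761 in cows and 4911 to 6189 in yak. DCN, the collagen-binding proteoglycan decorin, read 2163, 2545 and 2711 in buffalo and 4144 to 5882 (median 5001) in cattle (-1.01 ± 0.09), and IGFBP6, a binding protein for insulin-like growth factor, differed by -1.80. Of the 7 tested markers, 5 (COL1A1, COL1A2, DCN, FBLN1 and LUM) are also on the matrix list, and the part of fibroblast number in the matrix result was not tested.

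Measured directly against the yak, 5 matrix genes were higher and 7 lower (median -0.07), and 2 basement membrane genes were higher and 2 lower (median -0.17). For COL3A1, the yak read 415, 574 and 554 at the first probe set, and the buffalo minus yak differences of 0.71 ± 0.36 and 1.04 ± 0.41 did not pass the test (limma adjusted p = 0.125 and 0.0529). The buffalo and yak readings of COL3A1 overlapped at the first probe set. Over all tested probe sets, buffalo minus yak called 6709 (46.6%), with 3213 higher (22.3%) and 3496 lower (24.3%), and yak minus cattle called 3656 (25.4%). Because buffalo minus yak shares its buffalo arrays with the main comparison, its counts are no independent check of it.

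The deepest decrease of all single-probe-set genes was SELENOP, the plasma carrier of selenium. It read 72.9, 69.4 and 63.9 in buffalo, 1732 to 2232 (median 1863) in cattle and 1584, 1755 and 1732 in yak, a difference from cattle of -4.51 ± 0.12, or 22.8-fold lower (limma adjusted p = 5.78e-08), and from yak of -4.33 ± 0.12. No buffalo reading came near any other animal's, but there is no second probe set to set beside it. Of 31 tested antioxidant and selenoprotein genes, 4 were higher, 13 lower and 1 called both ways, with a median of -0.26, or -0.22 after the bin medians. After quantile normalisation 7 were higher and 11 lower. KEAP1, the sensor that holds the antioxidant factor NRF2 in check, was lower at 2 of 3 probe sets (-2.22, -2.29 and -0.17). The peroxidase PRDX6 was lower at all 3 (-1.07, -1.39 and -0.61), and SOD1, the cytosolic superoxide dismutase, read 1307, 1227 and 964 in buffalo and 2938 to 4414 (median 3999) in cattle (-1.69 ± 0.15).

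Of 3 tested metallothioneins, which bind zinc and copper, 2 were higher (median 1.70, or 1.85 after the bin medians). MT3 read 629.8, 577 and 619.6 in buffalo and 127 to 219.8 (median 186) in cattle, a difference of 1.70 ± 0.17 (limma adjusted p = 4.76e-05) without overlap. MT1A read 481, 913 and 5826 in buffalo and 98.7 to 548 (median 237) in cattle (2.59 ± 0.63). Its readings overlapped, since buffalo 3 was far above the rest while buffalo 1 lay within the cattle, and it was not called against the steers alone.

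Growth signals and protein turnover were described by 4 lists. Of 25 growth and myostatin signalling genes, 6 were higher and 9 lower (median -0.15, or -0.18 after the bin medians), and 3 were higher without buffalo 1. TGFB2, a growth factor that restrains muscle growth and promotes matrix, read 27.9, 21.9 and 38.7 in buffalo and 179.6 to 331 (median 269) in cattle (-2.63 ± 0.17), IGFBP7 differed by -1.80, and IGF2R, which clears insulin-like growth factor from the surface, by -0.49 and -1.19. Of 10 myogenic genes, 1 was higher and 4 lower (median -0.04, or 0.01 after the bin medians), with 3 higher without steer 3, and 2 higher, 3 lower and a median of 0.06 after quantile normalisation. Among the lower were the acetylcholine receptor subunits CHRNE (-2.59) and CHRNA1 (-1.24). Of 22 protein breakdown genes, 3 were higher, 9 lower and 2 called both ways (median -0.29, or -0.17 after the bin medians). After quantile normalisation 8 were higher and 8 lower. CAST, the inhibitor of the calpains that tenderise meat after slaughter, differed by -0.61 and -0.85. Of 31 proteasome genes, 5 were higher and 9 lower (median -0.04, or 0.17 after the bin medians). After quantile normalisation 10 were higher and 6 lower with a median of 0.20, so no direction is given for this list. In the reported fit, the core subunit PSMB2 was higher by 0.54 and 0.79 and the cap subunits PSMD4 (-0.94 and -0.79) and PSMC5 (-2.16 and -0.44) lower.

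Of 60 cytosolic ribosomal protein genes, 7 were higher and 30 (50%) lower, with a median of -0.18, or 0.06 after the bin medians. These genes lie among the brightest, and after quantile normalisation 13 were higher and 18 lower with a median of 0.00. RPL10, with 2 probe sets, differed by -0.33 and -0.63, RPS9 by -1.07, RPL23 by -0.77 and RPL11 by -0.75. Of 32 translation factors, 2 were higher and 13 lower (median -0.29, or -0.07 after the bin medians), and 6 were higher without buffalo 1. After quantile normalisation 8 were higher and 6 lower with a median of -0.06, so no direction is given for this list. The elongation factor EEF1A1, which brings transfer RNA to the ribosome, differed by -0.33 and -1.07.

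Stress and immune genes showed smaller groups of changes. Of 25 immediate early and stress genes, 5 were higher and 7 lower (median -0.45, or -0.27 after the bin medians), and against the yak 3 were higher and 16 lower (median -1.38). Against the cattle, the higher count was 3 without steer 1 and 2 without buffalo 3, and the lower count was 11 without cow 1 and 4 without buffalo 2. JUN, a subunit of the early transcription factor AP-1, had 5 tested probe sets at -2.27, -0.87, -2.61, -0.37 and -1.10, of which 4 were called lower, and KLF10, an early gene downstream of transforming growth factor, differed by -1.36 and -1.73. CEBPD went the other way, called higher at 2 of 3 probe sets with a mean of 0.68. Against the yak, however, CEBPD was lower, with a mean of -1.67. Of 34 chaperone genes, 7 were higher and 8 lower (median 0.13, or 0.32 after the bin medians). After quantile normalisation 14 were higher and 8 lower with a median of 0.33. The higher count also moved with single animals: 15 were higher without buffalo 1, 4 without steer 1 or cow 2, 3 without steer 2 or buffalo 2, and 2 without buffalo 3. HSPB6, a small heat shock protein of muscle, differed by -1.77, and the heat shock factor HSF1 by -1.23 and 0.12, the second of which was not called.

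Of 12 interferon response genes, 5 were higher and 1 lower (median 0.26, or 0.20 after the bin medians), and against the yak 7 were higher and none lower (median 0.49). Against the cattle, the higher count was 2 without buffalo 1 and 3 without steer 2, cow 1 or buffalo 2. STAT2, which carries the interferon signal to the nucleus, read 117, 86.5 and 154 in buffalo and 59.4 to 74.3 (median 67.3) in cattle (0.68 ± 0.14). Of 13 antigen presentation genes, 1 was higher and 5 lower (3 lower without buffalo 2); B2M, the light chain of class I molecules, was lower at 3 probe sets (-0.49, -0.34 and -1.39). Of 16 complement and acute phase genes, 2 were higher and 7 lower, with C1S at -2.65, C1QB at -1.81 and C1QC at -1.32. Of 8 tested macrophage markers, 1 was higher and 3 were lower (5 lower without steer 1). The 3 lower ones were C1QA and C1QB, which are also on the complement list, and CTSS, which is also on the antigen presentation list. All 10 macrophage markers on the array summed to 1013 to 1396 in buffalo, 2203 to 3651 in steers and 1256 to 2223 in cows, and the part of macrophage number in these values was not tested. Of 4 tested markers of T, B and NK cells, 1 was higher and none lower, and neither of the 2 tested blood markers was called.

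No tested vessel marker was called higher, and most were not called. Of 8 endothelial markers, 3 (37.5%) were lower, against 30.9% of all genes (median -0.27, or -0.27 after the bin medians). The lower ones included the junction protein CLDN5 at -1.23 and EGFL7 at -0.88. Of 7 smooth muscle and pericyte markers, 3 (42.9%) were lower, against the same 30.9% (median -0.32, or -0.20 after the bin medians). Among these were the pericyte regulator RGS5 at -2.27 and the actin-binding TAGLN at -1.88. The sum of all 8 smooth muscle markers on the array was 8518 to 11542 in buffalo and 12105 to 17493 in the steers and cows. In the hypoxia and angiogenesis list, 3 of 20 genes were higher and 8 lower (5 higher without cow 3), with VEGFB, a relative of the main vessel growth factor, at -1.44 and P4HA1, a collagen prolyl hydroxylase, at -2.16. S100B, a Schwann cell marker that fat and muscle can also express, read 3344, 3310.4 and 2879 in buffalo and 1029 to 2173 (median 1391) in cattle (1.15 ± 0.20).

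Transport and small-molecule enzymes completed the lists. Of 27 solute and water transport genes, 9 were higher, 4 lower and 2 called both ways (median 0.01, or 0.17 after the bin medians; -0.02 at equal array medians), and 7 were lower without cow 1. The carnitine carrier SLC22A5 was higher by 1.17 and 0.58, and the creatine carrier SLC6A8 differed by -0.46 and -1.66. Of 19 genes of NAD, purine and creatine metabolism, 2 were higher and 9 lower (median -0.41, or -0.27 after the bin medians), with 4 higher and 7 lower after quantile normalisation. Among the lower were GAMT, the last enzyme of creatine synthesis (-2.47), and ADSS2, an adenylosuccinate synthase (-1.85). Of 15 enzymes of amine, steroid and renin metabolism, 4 were higher and 4 lower (median 0.10, or 0.24 after the bin medians). AGT, the precursor of angiotensin, read 1152, 1658 and 1821 in buffalo and 254 to 376 (median 305) in cattle (2.23 ± 0.16), and ALDH2, which clears acetaldehyde, read 1145, 851 and 907 against 3081 to 5169.9 (median 4139) (-2.10 ± 0.17). Neither pair of groups overlapped. Of 7 clock genes, none was higher and 3 were lower, and BHLHE40, a repressor of the clock, differed by -0.70 and -0.89.

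Genes with a single tested probe set gave wide differences that no second probe set could be set beside. The thioesterase THEM4 read 769, 1462 and 1011 in buffalo and 51.4 to 96.6 (median 66.8) in cattle (3.64 ± 0.20, limma adjusted p = 1.84e-06). P4HA3, a collagen prolyl hydroxylase, read 201, 804 and 2099 in buffalo and 34.0 to 114 (median 74.3) in cattle (3.13 ± 0.55). The buffalo lay above all cattle for both, with buffalo 1 far below the other 2 for P4HA3. NDOR1, a flavoprotein reductase, differed by 2.48, the bicarbonate carrier SLC4A7 by 2.45 and the cholesterol ester hydrolase NCEH1 by 2.41. On the lower side were LRPAP1, a chaperone of lipoprotein receptors (-3.33), SUMF2 (-3.33), the fatty acid transporter SLC27A6 (-3.30) and ACSM1, which activates medium-chain fatty acids (-3.12). The yak set the last pair apart: SLC27A6 read 1741, 1806 and 1439 in yak against 30.5, 12.3 and 34.1 in buffalo, and ACSM1 read 11.9, 38.4 and 16.8 in yak against 9.48, 17.3 and 25.7 in buffalo, a difference that did not pass the test (limma adjusted p = 0.834).

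The genes with calls in both directions show how far 2 probe sets of a gene can part in buffalo. PTGR2, a prostaglandin reductase, was higher by 1.04 at one probe set and read 8.32, 14.3 and 10.4 in buffalo against 224 to 344 (median 263) in cattle at the other (-3.43). MPZL1, a membrane glycoprotein, differed by 2.83 and -1.54, the stress kinase MAPK14 by -3.16, 0.39 and -0.25, FEM1C by 2.58, -0.56 and -0.96, and the acyltransferase AGPAT3 by -2.01 and 1.27. No direction is given for these genes.

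XIST, the non-coding RNA that silences one X chromosome in female cells, has 6 probe sets on the array, of which 3 were tested. At the first the buffalo read 143, 176 and 230.2, the cows 369, 293 and 314 and the steers 33.3, 36.2 and 23.6. At the second the buffalo read 420, 507 and 595, the cows 237, 246 and 384, the steers 19.5, 21.4 and 15.9 and the yak 13.1, 14.0 and 17.4. At the third the buffalo read 67.1, 119 and 84.8, the cows 302, 353 and 388 and the steers 6.45, 8.59 and 7.80. All 3 buffalo lay above all 3 steers at each of these probe sets, and below the cows at the first and the third but above them at the second. The buffalo differences from the mean of steers and cows were 0.63 ± 0.15, 2.35 ± 0.16 and 0.17 ± 0.14, the last not called (limma adjusted p = 0.336). Another probe set, which was too dim over the 9 arrays to be tested, read 399, 615 and 740.3 in buffalo and 8.97 to 18.4 (median 15.2) in the cattle. The labels give no sex for the buffalo, and none is assigned here from these readings.

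**Figure D5:**
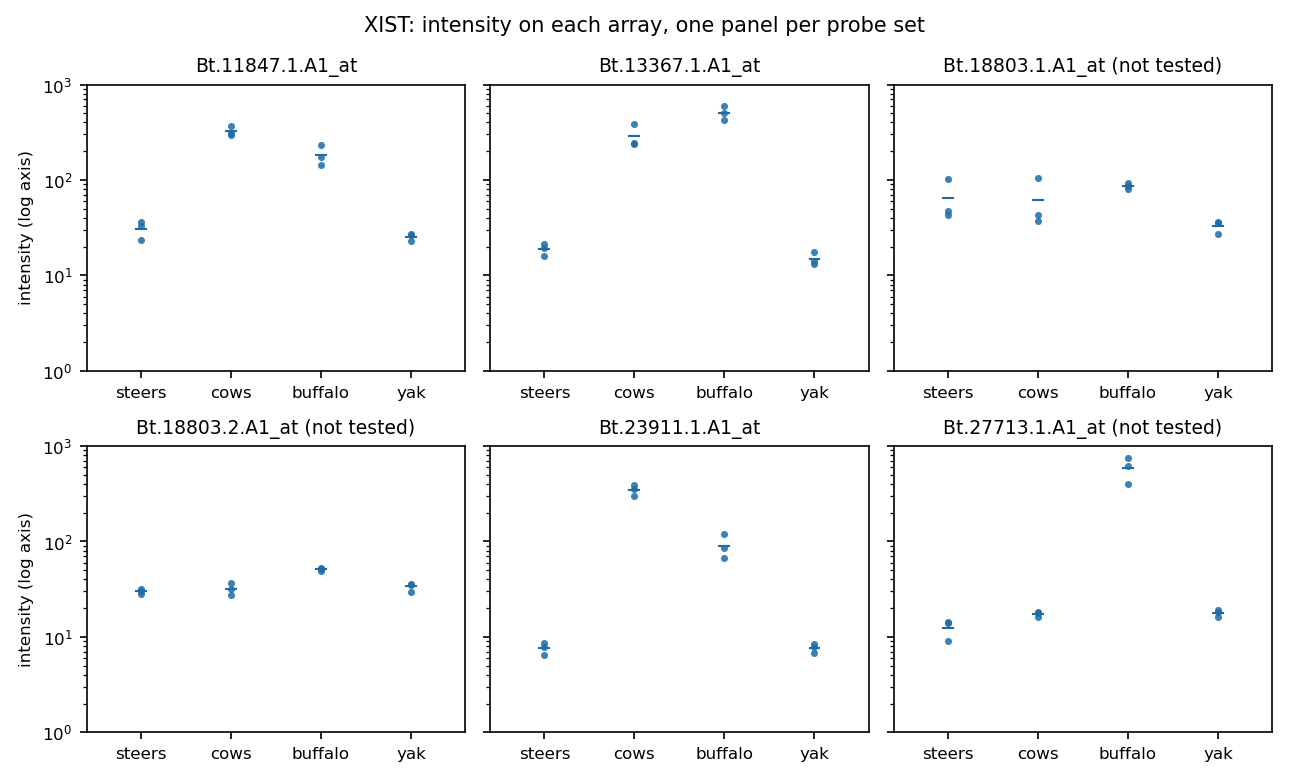
Intensity on each array (vertical axes, log scale) of the 6 XIST probe sets in steers, cows, buffalo and yak; points are animals and short bars group means. The buffalo lie above all steers at the 3 tested probe sets, and above all cows in the second panel and in the last, whose probe set was not tested.

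Of 6 tested genes on the sex chromosome list, XIST included, 3 were higher, 1 had calls both ways and none was lower. KDM6A, an X-linked histone demethylase, differed by 1.34 ± 0.16, and KDM5C, another, was higher at 1 of 3 probe sets (0.10, 0.13 and 1.31). Of 9 tested androgen and estrogen target genes, 2 were higher and none was lower.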

How the data were processed

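Expression was read on cattle expression arrays from longissimus muscle, 1 array per animal. The deposited values are linear intensities, 1 per probe set and array, as the authors made them; their software, background correction and normalisation, not given in the sources used here, can shift every value. No detection calls or array images were used. The members compared and the gene lists were chosen with earlier results of these data known.

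Control probe sets (112 of 24128) were left out and log2(intensity + 16) was taken. Probe sets were tested if their mean over the 9 arrays lay above the 40th percentile. In R 4.3.3, limma 3.58.1 (lmFit, and eBayes with a trend on brightness) was fitted to steer, cow and buffalo means, with buffalo minus the mean of the other groups as contrast and Benjamini-Hochberg adjustment over all 14409 tested probe sets. Buffalo minus yak came from a fit of 12 arrays on the same probe sets. The fit was tested on simulated data first. The tests measure the spread between 3 animals per group. No 2 arrays held identical values.

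Symbols came from the array's annotation as GEO holds it: 13292 probe sets had 1 symbol, 86 several and 10638 were not listed. Of the symbols' Entrez identifiers, those of 13263 probe sets matched the RefSeq gene table. Probe sets with several or no symbols count in totals and are not named.

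Genes are named by a rule: the 12 largest differences in each direction among genes with several agreeing probe sets and groups without overlap, up to 4 called members of each of 32 gene lists and 10 marker lists, the 6 largest in each direction among genes with 1 tested probe set, and the 5 widest gaps between probe sets called both ways. Genes outside the rule are marked as chosen after their values were seen, or did not pass the test.

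Animals carry numbers within their groups. For same-numbered animals, the correlation of their deviations from the group means was -0.10 to 0.14 over 9 pairs, above 0.1 in 3. Between differently numbered animals it was -0.20 to 0.16, above 0.1 only for steer 3 with buffalo 2. The numbers were not taken as pairs. Alternatives covered the pseudocount, normalisation, filter, model, reference group, replicate block and leaving out each array.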

Additional observations from a re-analysis of the deposited data

Results flagged for a closer look

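XIST differed between the cow and steer groups to which the buffalo were compared. The female minus castrated male difference on the log2 scale was 2.86 at the first tested probe set, 3.10 at the second and 3.94 at the third, so buffalo minus cattle at these probe sets depends on which cattle group is used.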

How the results depend on the processing

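Without the filter on dim probe sets, buffalo minus cattle called 11025 probe sets, 6416 of them higher, and 277 genes with several agreeing probe sets were higher. With the filter at the 60th percentile, 1747 probe sets were higher, and 223 genes had several agreeing probe sets, 64 of them higher. Of the calls, 58.2% were higher without the filter and 36.1% at the 60th percentile. Dim probe sets more often read higher in buffalo, and the mean used by the filter weighs 6 cattle against 3 buffalo arrays. The part of each in this shift was not tested. Leaving out 1 of the 9 arrays gave 5937 to 6928 called probe sets, 2503 to 3073 higher and 3419 to 3881 lower. It gave 255 to 334 genes with several agreeing probe sets, 95 to 137 higher and 159 to 201 lower. Leaving out 1 of 12 arrays gave 5356 to 6757 calls for buffalo minus yak, where leaving out a yak was chosen after seeing the data. The other settings kept all of these counts within 1.5 times the reported ones. After quantile normalisation 218 genes with several agreeing probe sets were higher and 156 lower, and at equal array medians 118 and 221. The replicate block gave 6882 calls and 338 genes with several agreeing probe sets, 326 of them in the same class as without it, and 6501 calls for buffalo minus yak. Among 158 named genes with a call, 129 kept it in every setting. The mean difference of some genes changed sign, and the cause was not tested. MDH2 came to 0.13 after quantile normalisation, 0.012 against steers alone, 0.051 with bulls included, and -0.20 to 0.13 when 1 array was left out. MUSTN1 came to 0.13 after quantile normalisation, 0.038 against cows alone and -0.23 to 0.11 with 1 array left out. IGF1 came to -0.048 with the filter at the 60th percentile, and PTGR2 to 1.04 there and with the filter applied in both groups, which removed its low probe set. That filter also gave 0.27 for BOLA-DRB3, 0.069 for MAPK14 and -0.76 for FEM1C. Against steers alone PER2 came to 0.15 and CEBPD to -0.25, against cows alone XIST to -0.60, and with bulls included CD14 to -0.34. The 3 arrays per group and 6 residual degrees of freedom limit what small differences can be called, and probe sets in the dimmest 40 percent were not tested.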
